A study of Mus musculus with 8 samples.

Results

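The proteasome genes of double-negative stage 3 (DN3) thymocytes were examined in control mice and in mice lacking the ER-associated degradation (ERAD) adaptor SEL1L in T cell precursors. They were chosen by symbol, as every row of the gene table whose name begins with Psma to Psmg followed by a number, which gave 51 of 16538 genes. DN3 thymocytes (CD4- CD8- CD44- CD25+) were sorted from the thymus of 6-week-old C57BL/6 mice, and their RNA was sequenced in 4 control libraries and 4 Sel1l CKO libraries. Both genotypes carried homozygous floxed Sel1l alleles (Sel1l-f/f), and the Sel1l CKO mice carried in addition the hCD2cre transgene, a human CD2-driven iCre that becomes active at the early T lineage precursor stage. The labels number the 4 libraries of each genotype but do not state whether each came from a separate mouse, and p-values measure the spread between these libraries.

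The proteasome is the protease that degrades ubiquitin-tagged proteins, among them the ER proteins that the SEL1L-HRD1 complex hands to the cytosol. Its barrel, the 20S core, stacks rings of alpha subunits (Psma genes), which gate the entrance, on rings of beta subunits (Psmb genes), of which Psmb5, Psmb6 and Psmb7 encode the catalytic ones. In lymphoid cells and under interferon the inducible subunits Psmb8, Psmb9 and Psmb10 take the places of Psmb5, Psmb6 and Psmb7, and the resulting immunoproteasome is known for producing peptides for MHC class I. The 19S cap, built from Psmc ATPases and Psmd subunits, recognizes, unfolds and threads substrates, Psme genes encode alternative activators, and Psmg genes encode chaperones that assemble the core.

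Values were deposited as RPKM, a read count divided by gene length and by library depth. Between 32900253 and 50401359 reads were counted on genes per library. Sel1l, read over all its exons, including those outside the floxed part, measured 1.83, 1.66, 1.61 and 1.57 RPKM in the control libraries, given here and throughout in the order of replicates 1 to 4, and 0.918, 0.876, 1.32 and 1.23 RPKM in the Sel1l CKO libraries. The groups did not overlap, and replicates 1 and 2 of the Sel1l CKO group lay below its replicates 3 and 4 (log2 fold change -0.59 ± 0.13 SE, adjusted p = 0.0327, limma). All 12 DN3 markers examined had a mean of at least 1 RPKM, with a summed level of 647 to 700 RPKM in control and 613 to 629 RPKM in Sel1l CKO libraries, of which Thy1 made the largest share. Of the 12, 10 had estimates below 0 (median log2 fold change -0.17), 0 passed the adjusted p, 4 were lower at an unadjusted p under 0.05 (against 9.54% of all genes), and in 3 every Sel1l CKO library lay under the lowest control (against 5.59%). The part of this shift in the proteasome values was not tested. The summed levels of markers of CD4 or CD8 positive thymocytes, thymic epithelium, B cells, myeloid cells and erythroid cells were at most 20.6 RPKM in any library, and those of NK or innate cells, mainly Nkg7, lay between 21.7 and 38.3 RPKM.

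Across all tested genes, deviations from the mean of the own genotype separated Sel1l CKO replicates 1 and 2 from replicates 3 and 4. In the controls the same split was less clear. The first principal component of these deviations held 46.4% of their variance. On it the controls were at -6.3, -6.8, 11.8 and 1.2, and the Sel1l CKO libraries at -14, -12.6, 12.9 and 13.7. Control replicate 4 thus lay between control replicates 1 and 2 and control replicate 3. The component kept this order of libraries with the proteasome genes left out (6465 genes). Neither the labels nor the methods name a batch that matches these numbers. The split was taken from the data. Results are therefore given over all libraries and, for the genes and classes where it is stated, within each pair of replicates. Because the pairs were picked from these same libraries, p-values within a pair and for the difference between pairs can be too low.

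In 4 of the 47 tested members (Psmb5, Psmb6, Psmg4 and Psmf1) every Sel1l CKO library exceeded every control library, against 9.15% of all tested genes. The upstream sequences of 3 of them are shown, because they hold a match to a motif of proteasome gene control, and the window of Psmf1, which holds none, is not shown. They are the 250 bases before the RefSeq start on GRCm38.p6, at chr14:54617996-54618245 on the minus strand for Psmb5, chr11:70525107-70525356 on the plus strand for Psmb6 and chr13:34162714-34162963 on the plus strand for Psmg4. The last bases of the Psmb5 window lie in a longer annotated first exon. Capitals mark TGANNNNGC on either strand, the antioxidant response element core, where N is any base.
Psmb5: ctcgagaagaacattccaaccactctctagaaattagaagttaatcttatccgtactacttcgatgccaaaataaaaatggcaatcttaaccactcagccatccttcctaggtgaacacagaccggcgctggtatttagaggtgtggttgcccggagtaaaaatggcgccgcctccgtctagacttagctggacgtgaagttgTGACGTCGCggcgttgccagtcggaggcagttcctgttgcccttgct
Psmb6: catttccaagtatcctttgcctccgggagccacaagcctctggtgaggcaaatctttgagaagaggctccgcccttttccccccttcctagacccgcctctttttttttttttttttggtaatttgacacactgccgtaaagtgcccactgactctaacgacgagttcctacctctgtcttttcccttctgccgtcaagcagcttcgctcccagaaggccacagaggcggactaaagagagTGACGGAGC
Psmg4: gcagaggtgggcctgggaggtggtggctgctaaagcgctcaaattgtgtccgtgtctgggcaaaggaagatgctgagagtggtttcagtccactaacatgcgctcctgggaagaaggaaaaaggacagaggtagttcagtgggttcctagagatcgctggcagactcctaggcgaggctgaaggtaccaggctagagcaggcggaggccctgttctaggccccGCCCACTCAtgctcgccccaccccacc
The match read TGACGTCGC at positions -47 to -39 before the start of Psmb5 and TGACGGAGC at -9 to -1 before that of Psmb6. In Psmg4 it was on the opposite strand, reading TGAGTGGGC, at -27 to -19. Such a match was as frequent among proteasome genes as elsewhere, being present for 17 of the 42 members with a window (40.5%) and for 38.7% of 27025 genes. CCAAT was found for 35.7% of members and 37.5% of genes, and CCACG, a part of the ER stress element, for 35.7% and 31.0%. The heat shock element core TTCNNGAA was found for 2 members (4.76%, against 8.11% of genes), the core of the interferon-stimulated response element for 3 (7.14% against 3.46%) and TGATGNAA, a form of the ATF4 element whose first 3 letters it shares with TGANNNNGC, for 1 (2.38% against 3.91%). Both strands were searched for each motif.

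Levels of different members were compared per kilobase of annotated exon, with all exons of a gene merged, because the deposited values are scaled to the whole gene including introns. On this scale (RPKM with exon length in place of gene length) genes of the core, the cap and the activators reached the highest levels in control DN3 cells, and the chaperone genes lay at or below 40.1. The highest control levels were those of Psma6 with 135 ± 8.5 (SD, n = 4), Psmb8 with 131.0 ± 4.2, Psmb5 with 124 ± 7.8, Psme1 with 115 ± 9.3 and Psma5 with 111 ± 5.5, and each differed from the next by less than their SDs combined. Alpha ring genes ranged down to 37.0 for Psma3 and constitutive beta ring genes to 37.9 for Psmb1. Of the inducible catalytic subunits, Psmb8 matched its constitutive counterpart Psmb5, Psmb10 stood at 68.7 ± 5.6 beside 43.0 ± 1.6 for Psmb7, and Psmb9 stood at 26.8 ± 1.7 beside 96.4 ± 2.2 for Psmb6. The 19S ATPases lay between 23.9 (Psmc2) and 104.0 (Psmc5), and the 19S non-ATPases between 15.6 (Psmd11) and 82.7 (Psmd2). Among chaperones Psmg4, Psmg1 and Psmg2 were between 31.8 and 40.1, whereas Psmg3 was at 4.90 and the 19S chaperones Psmd10, Psmd5 and Psmd9 at 16.8, 8.59 and 7.13. These levels depend on the annotated exons, since isoforms that are little used add length. The merged exons span 3381 bases for Psmb8 and 3660 for Psmb9, beside 899 for Psmb5 and 1872 for Psmb6. The comparisons between these genes hang on those lengths.

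**Figure D1:**
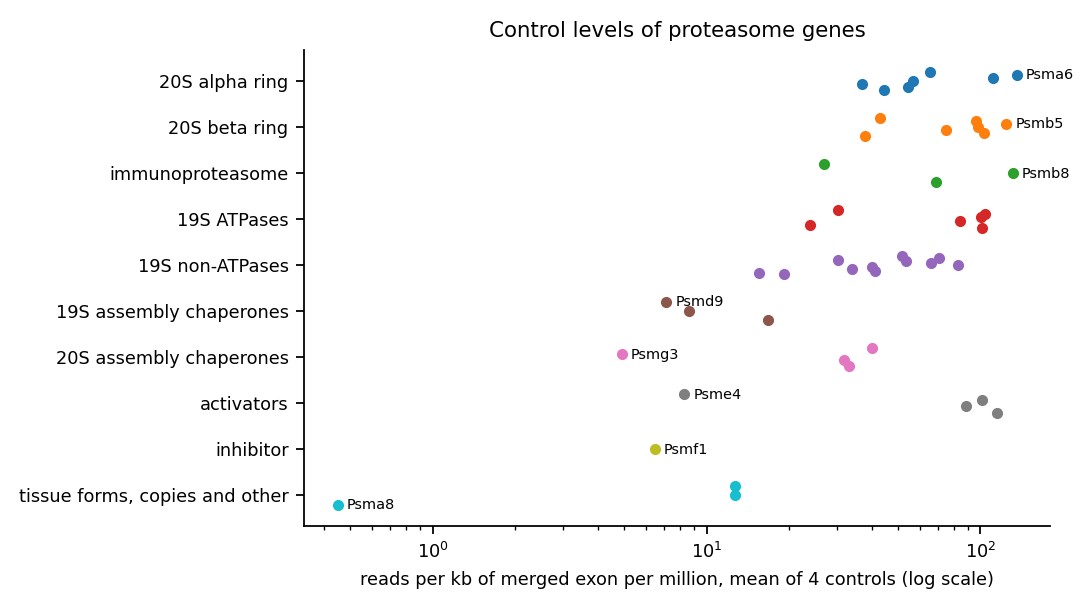
Mean level of the 49 proteasome genes with an exon-scaled value in the 4 control libraries, as RPKM over merged exon length on a log scale, with one row per class and one point per gene. Psma6, Psmb8 and Psmb5 are at the upper end, above 120, and the testis form Psma8 at 0.451 is the lowest of the 49.

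Of the 51 genes, 47 had a mean of at least 1 RPKM and were tested, with the p-value adjusted over all 6512 genes tested. None of the 47 passed an adjusted p of 0.05 in either direction, whereas 4.27% of all tested genes were called higher and 1.01% lower in Sel1l CKO. At an unadjusted p under 0.05, 6 members were higher, against 11.3% of all genes, and 0 were lower, against 9.54%. The 6 became 16 without Sel1l CKO replicate 4 and 3 without control replicate 4. By limma voom on the reads recovered from the RPKM steps, 1 member (Psmb5) was called higher and 0 lower. The estimates were small and mostly on one side. The log2 fold change was above 0 for 41 of 47 members, against 52.6% of all tested genes, and its median was 0.11 against 0.01 over all genes. With array weights 31 of 47 estimates were above 0.

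**Figure D2:**
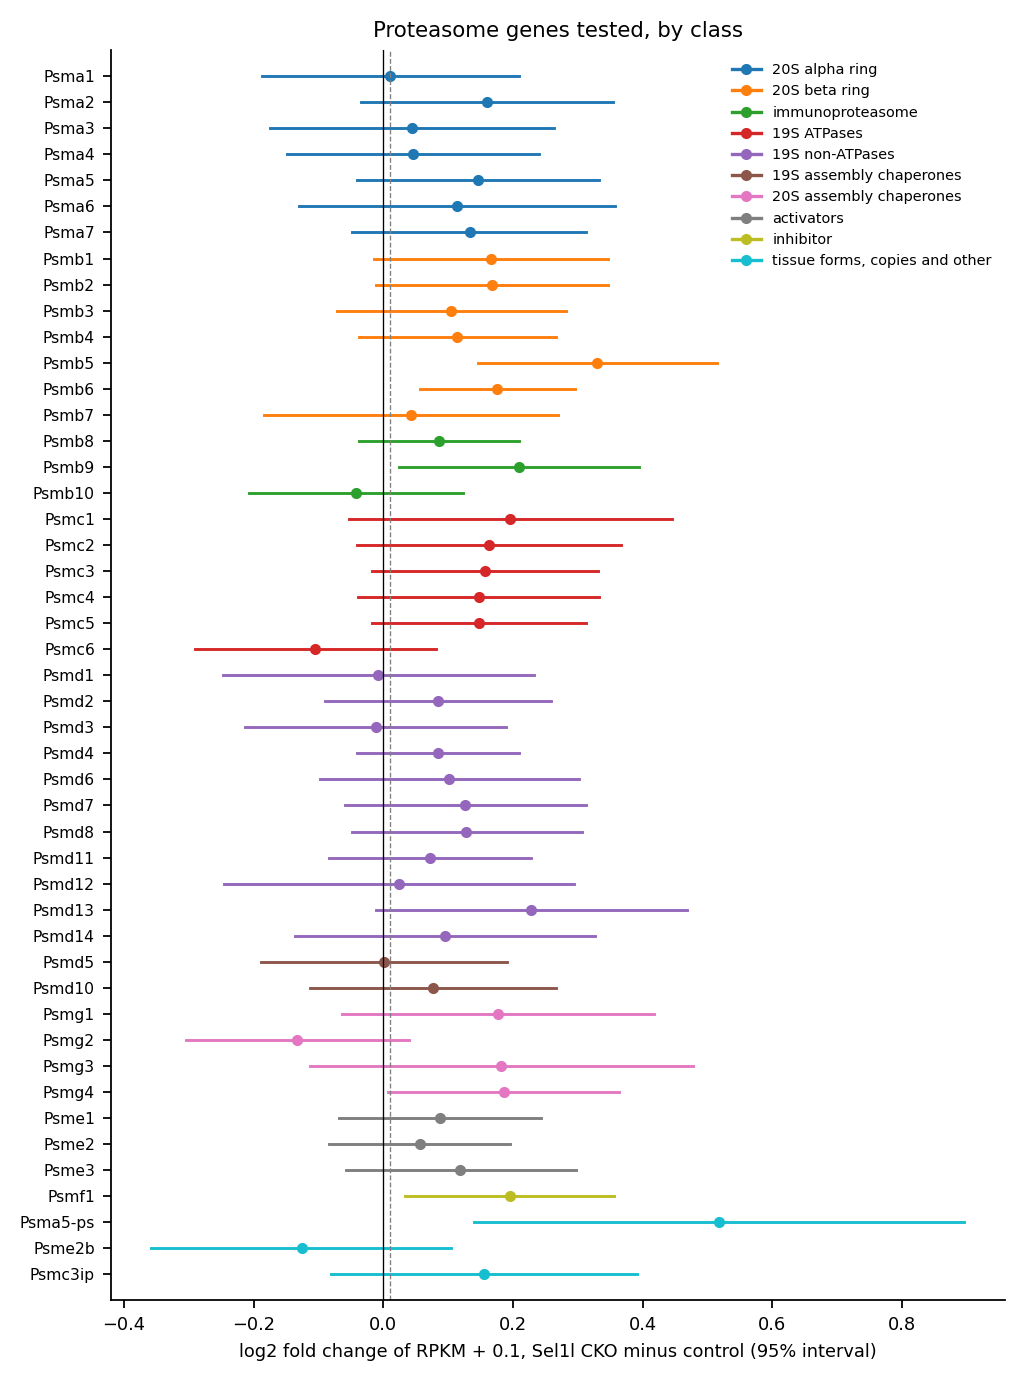
Log2 fold change (Sel1l CKO minus control, on log2(RPKM + 0.1)) of the 47 tested genes with 95% intervals from limma, colored by class, with the dashed line at the median of all tested genes (0.01). The intervals of 6 genes lie wholly above 0 and none lies wholly below it.

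None of the 7 constitutive beta ring genes passed the test, and all 7 estimates were above 0 (range 0.04 to 0.33), with a median of 0.17 that came to 0.08 (0.076) with array weights. Psmb5 encodes beta5, the chymotrypsin-like catalytic subunit, at chr14:54614119-54618022 on the minus strand. It was at 29.99, 28.7, 26.3 and 30.25 RPKM in the control libraries and 39.03, 39.2, 34.0 and 32.9 RPKM in the Sel1l CKO libraries. The groups did not overlap, and the mean was 126% of control (log2 fold change 0.33 ± 0.08 SE, 95% interval 0.15 to 0.51, adjusted p = 0.0517, limma). The adjusted p ranged from 0.0195 to 0.131 over 20 alternatives and was under 0.05 in 6 of them, one of which left out Sel1l CKO replicate 4 (0.041). Psmb6 encodes beta1, the caspase-like subunit, at chr11:70525367-70527858 on the plus strand. It was at 73.4, 74.1, 70.5 and 71.8 RPKM in control and 80.6, 85.7, 80.9 and 80.4 RPKM in Sel1l CKO libraries. Here too every Sel1l CKO library was above every control library, with an adjusted p of 0.1 (log2 fold change 0.18 ± 0.05 SE, limma). The third constitutive catalytic gene, Psmb7 for the trypsin-like beta2, was at 2.55, 2.62, 2.57 and 2.76 RPKM in control and 2.91, 3.20, 2.47 and 2.33 RPKM in Sel1l CKO libraries. Its Sel1l CKO values lay on both sides of the controls (log2 fold change 0.04 ± 0.10 SE, adjusted p = 0.837). The non-catalytic Psmb1, Psmb2, Psmb3 and Psmb4 had log2 fold changes of 0.17, 0.17, 0.11 and 0.11, with adjusted p-values from 0.267 to 0.467.

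Psmb5 and Psmb6 were among the 4 members in which every Sel1l CKO library was higher, which is 8.51% of the 47 members against 9.15% of all genes. In 0 members was every Sel1l CKO library lower than every control, against 5.59% of all genes.

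None of the 3 immunoproteasome genes passed the test, with 2 estimates above 0 and 1 below. Psmb8, for beta5i, at chr17:34197721-34201454, was at 117, 123, 120.4 and 114 RPKM in control and 132, 126, 125 and 122 RPKM in Sel1l CKO libraries, a log2 fold change of 0.09 ± 0.06 SE with an adjusted p of 0.401 and overlapping groups. Psmb9, for beta1i, at chr17:34181987-34187764, was at 15.6, 18.1, 17.5 and 16.9 RPKM in control and 22.4, 19.7, 18.8 and 18.0 RPKM in Sel1l CKO libraries. Sel1l CKO replicate 1 was the highest, replicate 4 fell within the controls, and the adjusted p was 0.192 (log2 fold change 0.21 ± 0.08 SE). Psmb9 starts next to Tap1 on the opposite strand and shares 212 annotated bases with it. Psmb10, for beta2i, at chr8:105935735-105938444, was at 40.9, 48.5, 45.1 and 41.4 RPKM in control and 44.1, 44.6, 40.15 and 41.8 RPKM in Sel1l CKO libraries, and its estimate was slightly negative (log2 fold change -0.04 ± 0.07 SE, adjusted p = 0.777).

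**Figure D3:**
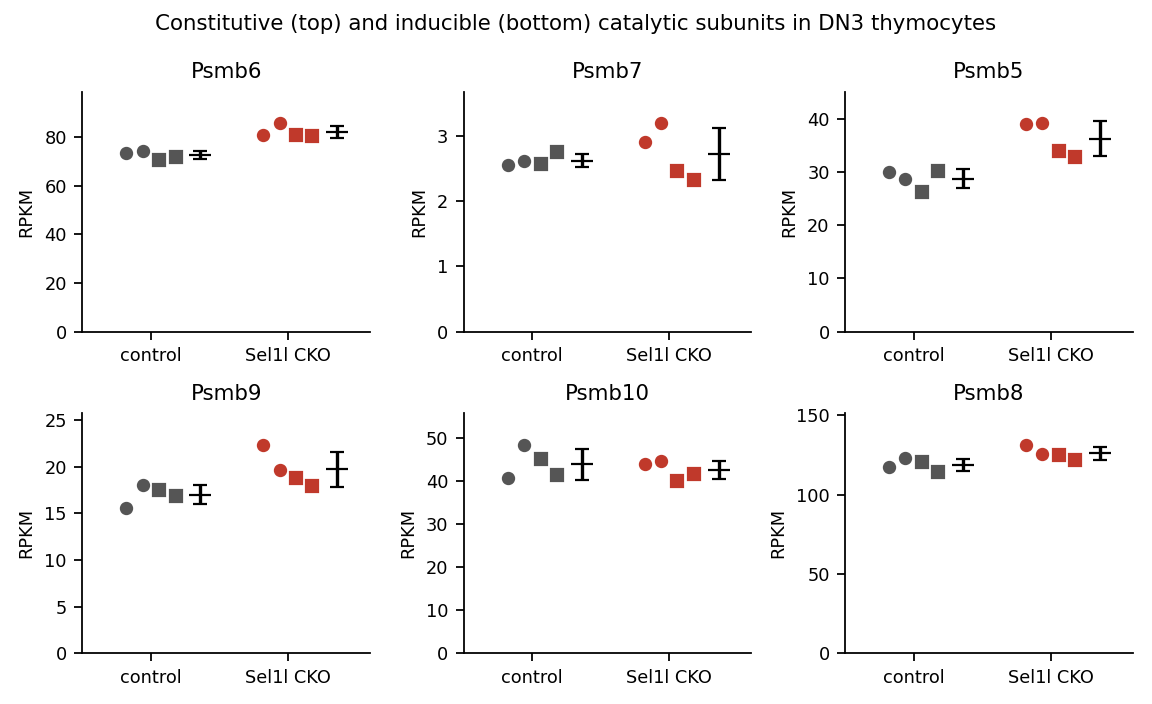
RPKM of the 3 constitutive catalytic genes (top row) and of the inducible genes that replace them (bottom row) in each library, with circles for replicates 1 and 2, squares for replicates 3 and 4, and bars for the mean and SD of 4 libraries. Psmb6 and Psmb5 are the panels in which all 4 Sel1l CKO libraries lie above all 4 controls.

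The balance of inducible to constitutive subunit was compared within each library. The RPKM ratio of Psmb8 to Psmb5 was 3.91, 4.28, 4.58 and 3.77 in control and 3.37, 3.20, 3.68 and 3.69 in Sel1l CKO libraries, so that each Sel1l CKO ratio lay below each control ratio. The log2 ratio differed by -0.24 (-0.245), with a two-sided exact permutation p of 0.0286, which is the smallest that 4 against 4 libraries can give, and 0.0858 after Benjamini-Hochberg adjustment over the 3 ratios. The ratio is set per gene length and its level has no meaning as a molar ratio. It differed by -0.32 (log2) within replicates 1 and 2 and by -0.17 within replicates 3 and 4. The ratio of Psmb9 to Psmb6 differed by 0.03 (exact permutation p = 0.743) and that of Psmb10 to Psmb7 by -0.09 (exact permutation p = 0.457), and neither passed after adjustment (0.743 and 0.686). The ratio of Psmb10 to Psmb7 differed by -0.25 within replicates 1 and 2 and by 0.07 within replicates 3 and 4.

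Interferon-responsive genes outside the proteasome were examined because they share the known inducers of Psmb8, Psmb9 and Psmb10. Of 14 listed genes, 11 were tested and 0 passed the adjusted p by limma, against 4.27% of all genes higher and 1.01% lower. At an unadjusted p under 0.05, 1 was higher (Tap1) and 2 were lower (Tapbp and Irf9), against 11.3% and 9.54% of all genes, and the median log2 fold change was -0.17. Tap1, a subunit of the peptide transporter into the ER, was at 15.8 to 18.7 RPKM in control and 18.5 to 20.7 RPKM in Sel1l CKO libraries (log2 fold change 0.19, adjusted p = 0.176). Tapbp, which encodes tapasin of the MHC class I loading complex, was at 10.3 to 13.3 RPKM in control and 5.97 to 9.83 RPKM in Sel1l CKO libraries, without overlap (log2 fold change -0.56, adjusted p = 0.102). Irf9, an interferon signaling factor, had a log2 fold change of -0.34 (adjusted p = 0.228). Tapbp and Irf9 were lower within replicates 1 and 2 (adjusted p = 0.0134 and 0.0125), and for neither did the difference between the pairs pass (adjusted p = 0.198 and 0.153).

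All 7 alpha ring genes had positive estimates that failed the test, with log2 fold changes from 0.01 to 0.16 and adjusted p-values from 0.33 to 0.958. Their median was 0.11 and, with array weights, -0.01. It was 0.07 (0.072), 0.03 (0.034) and 0.17 (0.175) without Sel1l CKO replicate 1, 2 or 4. Within replicates 1 and 2 the median was 0.28, with 7 of 7 estimates above 0. Within replicates 3 and 4 it was -0.09, with 1 of 7 above 0. Over all libraries the largest estimate was that of Psma2 (alpha2), at 15.59, 16.39, 16.25 and 16.04 RPKM in control and 19.2, 20.5, 16.5 and 15.97 RPKM in Sel1l CKO libraries. The smallest was that of Psma1 (alpha6), at 11.5, 10.9, 11.5 and 11.5 RPKM in control and 12.5, 12.7, 11.0 and 9.83 RPKM in Sel1l CKO libraries. In both genes Sel1l CKO replicates 1 and 2 lay above all controls and replicate 4 within or below them. Psma2 overlaps AW209491 on the same strand over 8943 bases, and reads in the shared part cannot be assigned with certainty.

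In the 19S cap, 5 of 6 ATPases and 9 of 11 non-ATPases had positive estimates, and no subunit passed the test. The median was 0.15 for the ATPases and 0.09 (0.085) for the non-ATPases, and with array weights 0.04 (0.042) and -0.01. For the non-ATPases it was 0.04 (0.043) without Sel1l CKO replicate 2 and 0.13 without replicate 4. Within replicates 1 and 2 the medians were 0.26 for the ATPases and 0.225 for the non-ATPases. Within replicates 3 and 4 they were 0.02 (0.024) and -0.02, with 5 of 6 and 4 of 11 estimates above 0. Psmc1 had the largest estimate among the ATPases, at 15.3, 14.7, 13.4 and 16.1 RPKM in control and 18.0, 20.5, 14.98 and 15.08 RPKM in Sel1l CKO libraries (log2 fold change 0.20 ± 0.11 SE, adjusted p = 0.353). Psmc6 was the ATPase with a negative estimate, at 5.59, 5.13, 5.64 and 5.57 RPKM in control and 5.09, 5.87, 4.87 and 4.61 RPKM in Sel1l CKO libraries. The Sel1l CKO group held both its highest and its lowest value (log2 fold change -0.11 ± 0.08 SE, adjusted p = 0.489). Among the non-ATPases the largest estimate was that of Psmd13, at 7.05, 7.37, 5.94 and 7.06 RPKM in control and 9.29, 8.57, 7.45 and 6.96 RPKM in Sel1l CKO libraries (log2 fold change 0.23 ± 0.11 SE, adjusted p = 0.261). Psmd3 had the lowest, at 24.1, 25.9, 22.8 and 25.1 RPKM in control and 27.4, 26.0, 21.4 and 22.75 RPKM in Sel1l CKO libraries (log2 fold change -0.01 ± 0.09 SE, adjusted p = 0.957). Psmd4, which encodes a ubiquitin receptor, and Psmd14, the deubiquitinase that strips the tag from substrates, had log2 fold changes of 0.08 (0.085) and 0.10, with adjusted p-values of 0.415 and 0.621.

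None of the 4 assembly chaperone genes of the core passed the test, with 3 estimates above 0 and 1 below. Their median of 0.18 came to 0.02 (0.016) with array weights. Psmg4 was at 1.38, 1.48, 1.51 and 1.49 RPKM in control and 1.77, 1.84, 1.53 and 1.59 RPKM in Sel1l CKO libraries, with no overlap between the groups (log2 fold change 0.19 ± 0.08 SE, adjusted p = 0.222). Psmg4 pairs with Psmg3, whose estimate was similar and less certain (0.18 ± 0.13 SE, adjusted p = 0.454). Psmg1 was at 4.16, 4.02, 3.88 and 4.14 RPKM in control and 5.275, 5.26, 4.07 and 3.92 RPKM in Sel1l CKO libraries (log2 fold change 0.18 ± 0.11 SE, adjusted p = 0.379). Its partner Psmg2 was at 4.72, 4.18, 4.51 and 4.21 RPKM in control and 3.88, 4.51, 3.85 and 3.81 RPKM in Sel1l CKO libraries, the lowest estimate of all members (log2 fold change -0.13 ± 0.08 SE, adjusted p = 0.362). In Psmg2, Sel1l CKO replicate 2 reached the controls and the other Sel1l CKO libraries lay below them. Of the 19S chaperones, Psmd10 (gankyrin) had a log2 fold change of 0.08 (adjusted p = 0.628) and Psmd5 of 0.00 (0.001, adjusted p = 0.997).

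The activators differed little. Psme3, the nuclear PA28 gamma, was at 39.9, 39.6, 41.7 and 41.6 RPKM in control and 48.1, 48.5, 39.9 and 41.0 RPKM in Sel1l CKO libraries (log2 fold change 0.12 ± 0.08 SE, adjusted p = 0.419). The values of the PA28 alpha and beta genes Psme1 and Psme2 overlapped between groups, with log2 fold changes of 0.09 and 0.06 and adjusted p-values of 0.494 and 0.634. Psmf1 encodes PI31, which binds the core. It was at 1.52, 1.51, 1.38 and 1.46 RPKM in control and 1.73, 1.73, 1.55 and 1.76 RPKM in Sel1l CKO libraries, all of them above the controls (log2 fold change 0.19 (0.195) ± 0.07 SE, adjusted p = 0.164).

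Further rows caught by symbol are not ordinary subunits of thymocyte proteasomes. Psma5-ps, a processed pseudogene copy of Psma5, was matched through a synonym to an annotated gene of another name, a match that is not certain. The transcript of that gene is 99.1% identical to a Psma5 transcript over 948 aligned bases. The Psma5-ps row drew 69 to 175 reads per library where Psma5 drew 4668 to 8849. It was at 1.78, 1.98, 2.75 and 2.76 RPKM in control and 3.66, 3.65, 2.55 and 3.48 RPKM in Sel1l CKO libraries, the largest estimate of all members (log2 fold change 0.52 ± 0.17 SE, adjusted p = 0.122), and reads of this copy and of Psma5 cannot be told apart with certainty. Psme2b, a copy of Psme2 with 99.4% identity over 794 bases, had a log2 fold change of -0.13 ± 0.10 SE (adjusted p = 0.505). It drew 266 to 542 reads per library where Psme2 drew 5269 to 8624. The aligned bases differ at 5 positions, so reads of this copy and of Psme2 likewise cannot be told apart with certainty. Psme2b also shares 837 bases with another listed gene on the same strand. Psmc3ip, which encodes a meiotic recombination factor and no subunit, had a log2 fold change of 0.15 (0.155) ± 0.10 SE (adjusted p = 0.426).

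The 4 members under the RPKM filter were Psmd9, Psme4, Psma8 and Psmb11. Psmd9 and Psme4 are long genes whose low RPKM comes with many reads, 1669 to 2868 for Psmd9 and 2239 to 3709 for Psme4. Without the filter their log2 fold changes were 0.12 (0.115) ± 0.08 SE and -0.01 ± 0.07 SE (adjusted p = 0.538 and 0.974, limma). Psma8, the testis alpha subunit, had 14 to 75 reads per library. Psmb11, the thymoproteasome subunit beta5t of cortical thymic epithelium, was listed at 0 in control replicates 1, 3 and 4 and Sel1l CKO replicate 3 and was at most 0.107 RPKM elsewhere.

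The median member stood highest in Sel1l CKO replicates 1 and 2, though not every class did. Set against the control mean, the median member was at 0.22, 0.24, 0.02 and -0.01 (log2) in Sel1l CKO replicates 1 to 4, and between -0.01 and 0.03 in the controls. The median over all tested genes was at most 0.04 away from 0 in every library. In 38 of 47 members both Sel1l CKO replicates 1 and 2 exceeded every control library, against 28.8% of all genes, and in 4 members both replicates 3 and 4 did, against 16.6%. As these are bulk samples, a different share of some cells and a different amount of RNA per cell cannot be told apart.

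**Figure D4:**
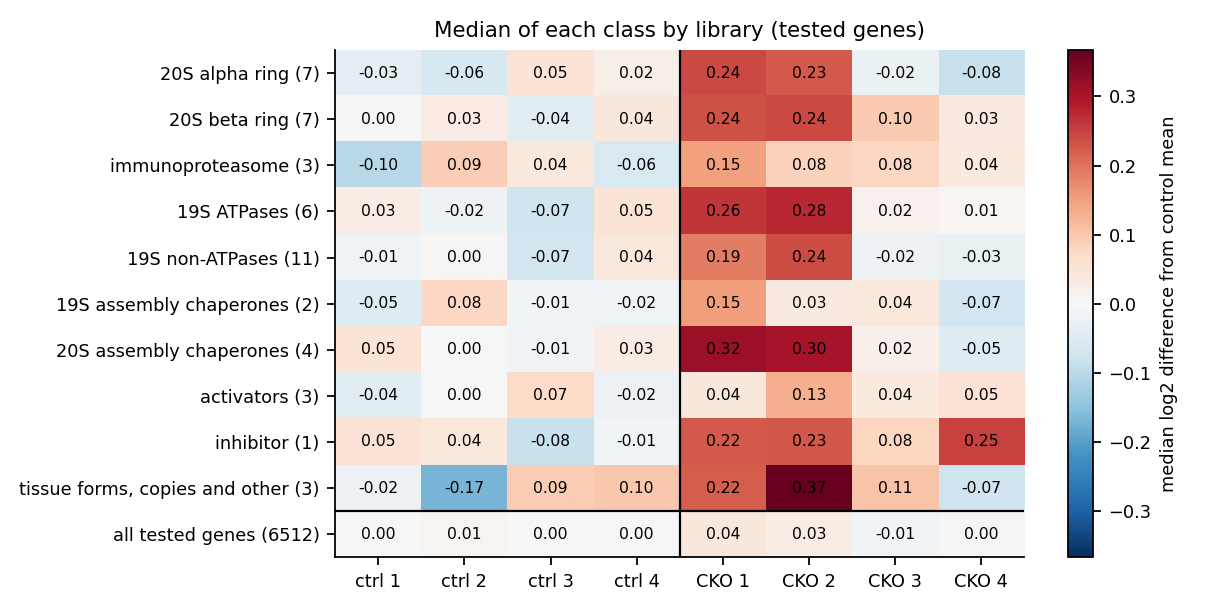
Median log2 difference from the control mean for each class (rows, number of tested genes in parentheses) in each library (columns), with all tested genes in the bottom row. The alpha ring, beta ring, ATPase, non-ATPase and 20S chaperone rows are at 0.19 or higher in Sel1l CKO replicates 1 and 2 and at 0.10 or lower in replicates 3 and 4. The immunoproteasome row is at 0.15, 0.08, 0.08 and 0.035 in Sel1l CKO replicates 1 to 4, and the inhibitor row is highest in replicate 4 (0.25).

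In a fit with separate means for each pair of replicates in each genotype, 14 members were higher within replicates 1 and 2 at an adjusted p under 0.05, against 7.48% of all genes, and 0 were lower, against 7.54%. Within replicates 3 and 4, 0 were higher, against 3.53%, and 0 lower, against 1.20%. At an unadjusted p under 0.05 the same fit had 30 members higher within replicates 1 and 2, against 18.2% of all genes, and 0 lower, against 16.0%. Within replicates 3 and 4 it had 2 higher, against 9.94%, and 3 lower, against 7.57%. These comparisons rest on 2 against 2 libraries with the spread shared over all 8. As the pairs were chosen on these data, that spread can be understated, and the counts are a description. The 14 were the alpha ring genes Psma2, Psma3, Psma5, Psma6 and Psma7, the beta ring genes Psmb2 and Psmb5, the cap genes Psmc2, Psmc5 and Psmd12, the chaperone gene Psmg1, the activator gene Psme3, and Psma5-ps and Psmc3ip. The median log2 fold changes of the 47 were 0.23 in the first pair and 0.00 (0.005) in the second, with 43 and 25 estimates above 0.

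The difference between the pairs was tested itself, with the same limit from choosing the pairs on these data. No member passed the adjusted p, against 0.276% of all genes (limma), and 18 of 47 had a larger fold change within replicates 1 and 2 at an unadjusted p under 0.05, against 9.37%. Of these, Psmd12, a lid subunit of the cap, was at 4.26, 4.14, 4.52 and 4.59 RPKM in control and 4.99, 5.41, 3.77 and 3.85 RPKM in Sel1l CKO libraries. Its replicates 1 and 2 were above all controls and its replicates 3 and 4 below them, with log2 fold changes of 0.30 and -0.25 (difference 0.55, adjusted p = 0.0967). Psma6 (alpha1) was at 4.64, 4.61, 5.24 and 5.03 RPKM in control and 5.78, 6.26, 4.67 and 4.60 RPKM in Sel1l CKO libraries, with log2 fold changes of 0.37 and -0.14 (adjusted p of the difference 0.0967). Psmb6 and Psmf1 had estimates of similar size in both pairs. For Psmb6 the log2 fold changes were 0.17 in the first pair and 0.18 in the second, and for Psmf1 they were 0.18 and 0.21.

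**Figure D5:**
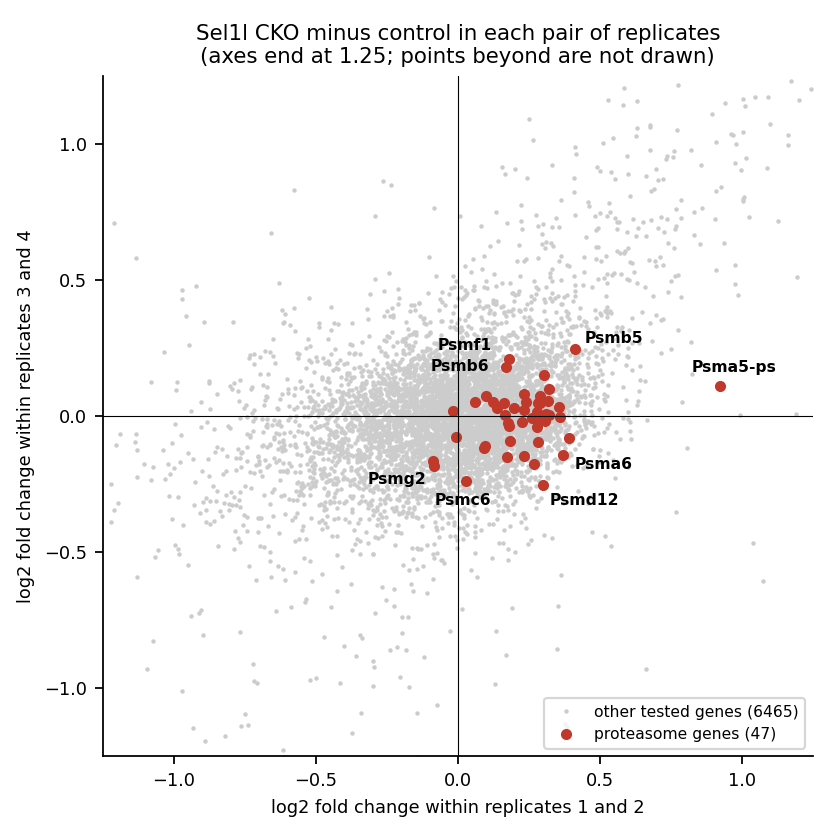
Log2 fold change (Sel1l CKO minus control) within replicates 1 and 2 on the horizontal axis and within replicates 3 and 4 on the vertical axis, with the 47 proteasome genes in red and the other tested genes in grey. The red points lie right of 0 for 43 genes and above 0 for 25, with medians of 0.23 and 0.00 (0.005).

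Sel1l had log2 fold changes of -0.89 in the first pair and -0.30 in the second, a difference that did not pass (adjusted p = 0.108). Of 8 heat shock factor targets, 4 were lower in Sel1l CKO over all libraries, against 1.01% of all genes (Hspa1a, Hspa1b, Hsph1 and Hsp90aa1), 4 within replicates 1 and 2, against 7.54%, and 8 within replicates 3 and 4, against 1.20%. None of the 8 passed the adjusted p for the difference between the pairs (lowest 0.0615, for Hspa1a). The inducible HSP70 gene Hspa1a was at 50.5, 16.1, 460.5 and 1059 RPKM in control and 7.18, 3.75, 2.14 and 3.15 RPKM in Sel1l CKO libraries, so that control replicates 3 and 4 stood far above all others. The part of the Sel1l level, of the heat shock genes and of the libraries' split in the proteasome values was not tested.

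Proteasome pathway genes outside the symbol rule were taken from a list of 36 symbols, of which 32 were in the table and 27 were tested. One passed, against 4.27% of all genes, and it was higher. At an unadjusted p under 0.05, 7 of the 27 were higher, against 11.3% of all genes, and 0 were lower, against 9.54%. In 6 of the 27 every Sel1l CKO library exceeded every control library, against 9.15%. Vcp encodes the p97 ATPase that extracts ubiquitinated proteins from the ER membrane for the proteasome. It was at 29.4, 29.1, 26.6 and 28.0 RPKM in control and 41.4, 36.9, 36.2 and 37.9 RPKM in Sel1l CKO libraries, with no overlap (log2 fold change 0.43 ± 0.07 SE, adjusted p = 0.00517). This call held in 20 of 20 alternatives (adjusted p from 0.00123 to 0.024). Txnl1, which encodes a thioredoxin-like protein bound to the cap, was at 2.86, 2.93, 3.10 and 3.225 RPKM in control and 4.075, 4.07, 3.47 and 3.535 RPKM in Sel1l CKO libraries, without overlap (log2 fold change 0.31 ± 0.08 SE, adjusted p = 0.0562). The small cap subunit gene Sem1 was at 5.41, 5.37, 5.12 and 5.16 RPKM in control and 6.25, 6.24, 6.16 and 5.61 RPKM in Sel1l CKO libraries, likewise without overlap (log2 fold change 0.20 ± 0.06 SE, adjusted p = 0.108). Pomp, which encodes the maturation factor of the 20S core, was at 6.94, 7.17, 7.45 and 7.05 RPKM in control and 9.325, 8.42, 8.02 and 7.22 RPKM in Sel1l CKO libraries. Sel1l CKO replicate 4 lay within the controls (log2 fold change 0.20 ± 0.08 SE, adjusted p = 0.213). Adrm1, which encodes a ubiquitin receptor of the cap, had a log2 fold change of 0.13 ± 0.08 SE (adjusted p = 0.369).

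Nfe2l1 and Ddi2, the genes for a transcription factor that controls proteasome genes and for a protease that processes it, were likewise not called. Nfe2l1 was at 7.84, 8.215, 7.75 and 6.81 RPKM in control and 8.44, 8.24, 8.69 and 8.42 RPKM in Sel1l CKO libraries, all of the latter above all controls (log2 fold change 0.14 ± 0.07 SE, adjusted p = 0.285). Ddi2 had a log2 fold change of -0.05 ± 0.08 SE (adjusted p = 0.784). Ngly1, the enzyme that removes the glycans of that factor, and Usp14, a deubiquitinase bound to the cap, were not tested. They were under the filter at 0.763 to 0.921 and 0.731 to 1.12 RPKM.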

How the data were processed

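RNA was sequenced from sorted DN3 thymocytes of 4 control and 4 Sel1l CKO libraries. The authors prepared stranded mRNA libraries, aligned paired-end reads to GRCm38 with STAR 2.5.2b and used HTSeq 2.7 to count protein-coding genes. The deposited table holds RPKM values in 8 columns, 1 for each library. Per the submitters' processing notes DESeq2 was used for the authors' own test. Whether counting used the strand is not given in the sources used here.

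The deposited RPKM steps gave whole reads in every library, within 0.02 of a read, for 75.3% of genes with the gene span including introns and for 3.2% with the exon length. Reads were recovered for 15168 genes, 3390 of them with a length solved from the values, and sum to 95.75% to 99.12% of each library total. Depth bears most on low genes.

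Values were tested in R 4.3.3 with limma 3.58.1 (moderated test, trend on, with no covariate besides genotype) on log2(RPKM + 0.1) for genes with a mean of at least 1 RPKM, Benjamini-Hochberg adjusted over all genes tested, threshold 0.05. A fold change on this scale understates that of low genes. Ratios were tested by two-sided exact permutation over 70 assignments. Positions are those of GENCODE M21, upstream sequences those of RefSeq. Of the members, 42 matched a RefSeq window. Copies were aligned with Biopython 1.88. Another listed gene overlaps 12 members, on the same strand for 3 of these. The limma fit over all libraries and the voom fit were tested on simulated data that held no replicate split.

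The members, classes and gene lists, and the split of replicates 1 and 2 from 3 and 4, were chosen with earlier results of these data known. Named by rule are the catalytic subunits, the largest rise and fall of each class, pathway genes past the threshold and 6 chosen pathway genes. Some of these are given without values for each library or without an SE. Further genes were named after their values were seen (Psmf1, Psmg4, Psma6, Psmd12, Tap1, Tapbp, Irf9, Txnl1, Sem1 and the heat shock genes). The alternatives were pseudocounts of 1 and 0.01, no filter, a mean of at least 5 RPKM, 3 scalings, limma without trend, array weights, a replicate block, the replicate split as a term, limma voom on recovered reads (mean of at least 10) and leaving out each library. Fits within each pair of replicates were added after seeing the data.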

Additional observations from a re-analysis of the deposited data

Results flagged for a closer look

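In 102 groups of 4 libraries (47 tested members, Vcp and 3 ratios, in each genotype), the gap between the outermost library and its neighbor was compared with the range of the group. In 10 groups it passed Dixon's 95% value, where chance gives about 1 in 20, or 5.1 of 102. The libraries that stood above the others of their group were Sel1l CKO replicate 2 for Psmb6, at 85.7 RPKM with the others at 80.4 to 80.9, and for Psmg2, at 4.51 RPKM with the others at 3.81 to 3.88, and Sel1l CKO replicate 1 for the ratio of Psmb9 to Psmb6, at 0.2775 with the others at 0.2235 to 0.2325. Controls that stood below their group were replicate 3 for Psmd6, at 9.015 RPKM with the others at 9.72 to 9.82, and for Psmg3, at 3.52 RPKM with the others at 4.48 to 4.62, and replicate 2 for Psmc6, at 5.13 RPKM with the others at 5.57 to 5.64, and for Psma1, at 10.9 RPKM with the others at 11.5. Sel1l CKO libraries that stood below their group were replicate 3 for Psmf1, at 1.55 RPKM with the others at 1.73 to 1.76, and for Psma5-ps, at 2.55 RPKM with the others at 3.48 to 3.66, and replicate 4 for Psme2b, at 9.66 RPKM with the others at 12.1 to 12.5.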

How the results depend on the processing

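With 0 members called over all 8 libraries, 1 member (Psmb5) was called higher with a mean of at least 5 RPKM, with median-of-ratios scaling, with the replicate split as a term and with limma voom, 2 (Psmb5 and Psmb6) with array weights, and 14 within replicates 1 and 2. Leaving out 1 library gave 0 to 1, the latter without Sel1l CKO replicate 4. No setting called a member lower. The median of the members, 0.11, came to 0.23 in replicates 1 and 2 alone, 0.005 in replicates 3 and 4 alone, 0.04 with array weights and between 0.08 and 0.17 with 1 library left out, lowest without Sel1l CKO replicate 1 and highest without replicate 4. The log2 ratio of Psmb10 to Psmb7, -0.09, came to -0.25 in the first pair (within replicates 1 and 2) and 0.07 (0.075) in the second. Over all genes, 278 higher and 66 lower became 182 and 36 with at least 5 RPKM, where fewer genes were tested, and 458 and 182 with array weights, with 182 lower under the replicate split and 161 lower by voom. Leaving out 1 library gave 204 to 254 higher and 31 to 75 lower. The cause was not tested. For single members, 926 estimates came from the alternatives without the fits within pairs. These include the replicate split as a term, which was taken from the data. Of them, 879 kept direction and side of the threshold, 40 changed sign without a call and 7 gained one. With 0 members called over all 8 libraries, keeping the side means staying uncalled.

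Libraries were not treated as paired by replicate number, and the deviations do not settle whether they are. Deviations of same-numbered libraries correlated at 0.16, 0.10, 0.45 (0.445) and 0.01 (0.005), and not every library correlated best with its own number. With the replicate block, 0 members were called and 236 genes were higher and 81 lower. Exact sign-flip permutation of same-numbered libraries gave p = 0.125 for the ratio of Psmb8 to Psmb5, the smallest that 4 pairs allow. Depth limits Psma5-ps, Psme2b, Psma8 and Psmb11 most.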
